A study of Callithrix jacchus with 3 samples.

Results

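The nuclear genes of the respiratory complexes were examined in 3 RNA sequencing libraries of EPSC-like cells of the common marmoset (Callithrix jacchus), a New World monkey. Members were chosen by name: gene IDs whose symbol begins with NDUF, UQCR or ATP5, the SDHA to SDHD genes, CYCS, CYC1, and the COX4 to COX8 subunit genes. Of 86 gene IDs with such a symbol in the name table, 48 were rows of the count files, out of 30811 genes in each file. The other 38 IDs were not analysed here. They include CYCS, which encodes cytochrome c, and for complex IV the COX4I2, COX6B2, COX7B2 and COX8C isoform genes. The 48 members comprised 23 subunit genes and 6 assembly factor genes of complex I, 4 genes each of complexes II, III and IV, and 7 genes of complex V. These were 29 of 45 listed genes for complex I and all 4 for complex II. For complexes III, IV and V they were 4 of 10, 4 of 19 and 7 of 19. The general complex IV forms COX6A1, COX6B1, COX7A2, COX7B and COX8A were also not among the rows. A pair of symbols are older spellings, ATP5A1 for ATP5F1A and ATP5H for ATP5PD.

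All 3 libraries belong to 1 group, labelled as extended pluripotent stem cells (EPSC), and the study's title places them in attempts to derive such cells from marmoset embryonic stem cells. The replicate numbers come from the sample titles. The 3 titles share the prefix No40, whose meaning the labels do not give, and no label gives a medium, passage or sex or speaks of separate cultures. The p-values of levels therefore rest on the spread of these 3 libraries, which may be technical, and those of differences between libraries on counting error alone. With no other group, the questions the data can address are at what level these genes were read and how far the libraries differ.

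The respiratory chain of the inner mitochondrial membrane passes electrons from NADH and succinate to oxygen and pumps protons, and the proton gradient drives ATP synthesis. Complex I takes electrons from NADH, complex II from succinate, complex III passes them from ubiquinol to cytochrome c, complex IV reduces oxygen, and complex V is the ATP synthase. Most subunits are encoded in the nucleus and some in mitochondrial DNA. A few complex IV subunits have isoforms that replace the general form in heart and skeletal muscle, testis or lung. Pluripotent stem cells are known for a strong reliance on glycolysis, with naive cells respiring more than primed ones.

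Total counts were between 40593244 and 55224475 per library, which sets 1 limit: 3 counts, the most that a count of 0 allows, equal between 0.0543 and 0.0739 counts per 1000000 (CPM). This limit covers counting error only. All 6 pluripotency markers matched, POU5F1, NANOG, SOX2, LIN28B, DNMT3B and EPCAM, were above 1 CPM, and they do not tell extended from other pluripotent cells. In replicate 3, 4 of the 6 were higher and 1 lower than in replicate 1, and 4 and 2 than in replicate 2. Most highly read genes differed there: of genes averaging 10 CPM or more, 35.1% were higher and 44.1% lower than in replicate 1. Against replicate 2 these shares were 34.8% and 45.1%. Replicates 1 and 2 lay close together and replicate 3 apart. Among 9352 genes averaging 10 CPM or more, the SD of the log2 ratio was 0.08 for replicate 2 over 1, 0.42 for replicate 3 over 1 and 0.43 for replicate 3 over 2. For the 45 members at that level the SDs were 0.07, 0.20 and 0.21.

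Nearly every member was clearly read. Of the 48 members, 47 were above 1 CPM and none was below it (edgeR quasi-likelihood F statistic against 1 CPM, two-sided, Benjamini-Hochberg adjusted over 23432 genes), with 2.57e-06 as the largest adjusted p among the 47. Over all genes tested, 56.0% were above 1 CPM and 37.8% below. Of the tested genes that carry a symbol, 78.3% were above it, and every member carries a symbol. At a level of 10 CPM, 45 members were above and 2 below, against 37.6% above and 57.3% below over all genes. The 3 exceptions were the muscle isoform gene COX6A2 and the assembly factor gene NDUFAF6, both below 10 CPM, and the complex I gene NDUFB8, which was not distinguished from 10 CPM (adjusted p = 0.0569, edgeR). Together the members took 0.607%, 0.601% and 0.667% of all counts in replicates 1, 2 and 3, or 0.625% ± 0.037 (SD, n = 3). The share was higher in replicate 3 than in the other libraries. Levels are not divided by gene length, since the annotation behind the counts is not named, so CPM values of different genes are given side by side, and any order between genes is one of read numbers, not of transcript levels.

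**Figure D1:**
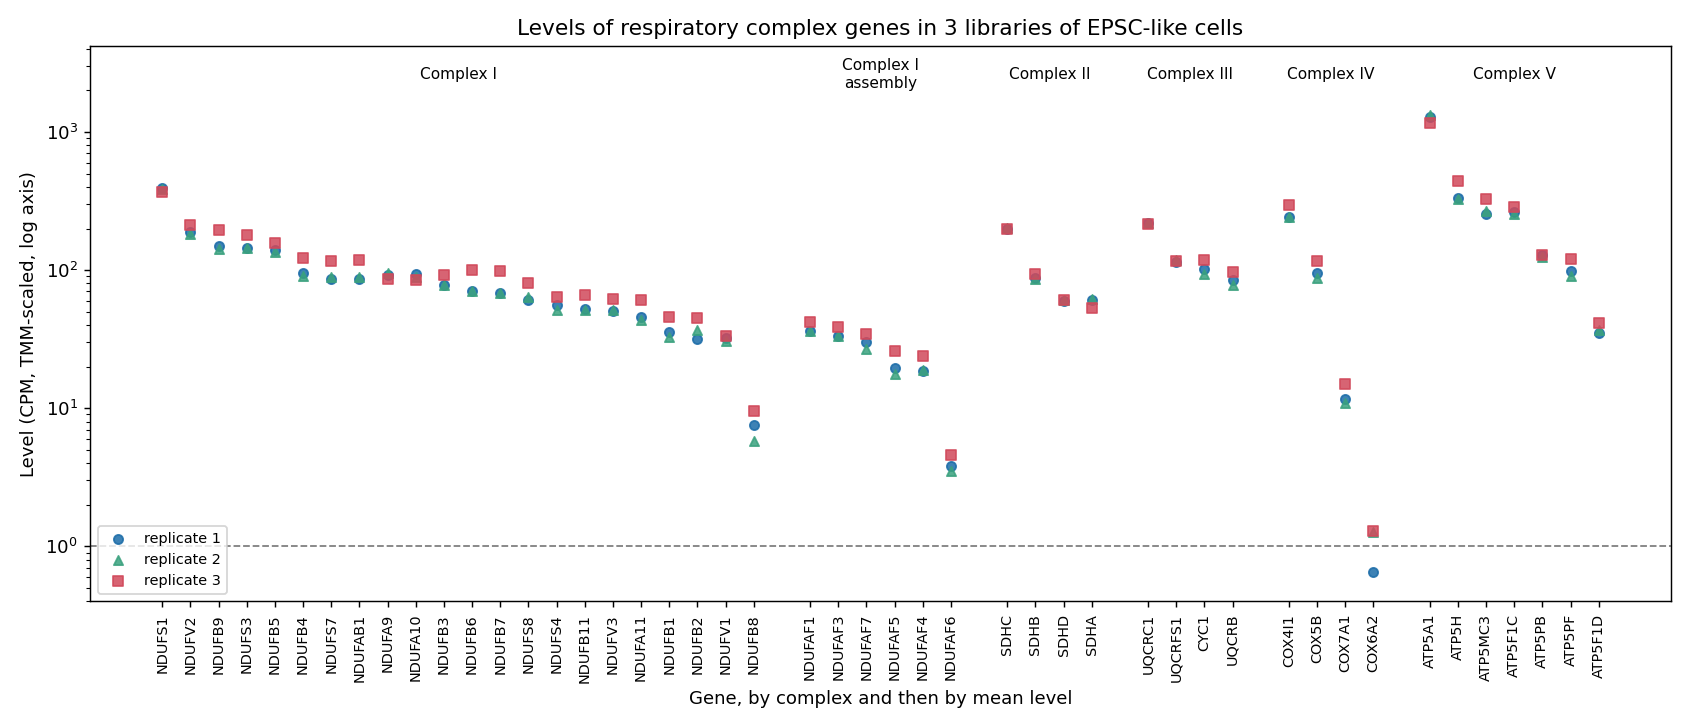
The level of each member shown in CPM (vertical log axis, scaled by TMM factors) in replicates 1, 2 and 3, with genes on the horizontal axis by complex. The dashed line marks 1 CPM. COX6A2 lies at the line and ATP5A1 lies between 1167 and 1318 CPM.

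Complex I is an L-shaped enzyme whose peripheral arm holds the flavin and the iron-sulfur clusters, and whose membrane arm pumps protons. The nuclear core subunit genes of the peripheral arm were all above 1 CPM. NDUFS1, which encodes the largest iron-sulfur subunit, stood at 392, 384 and 365 CPM in replicates 1, 2 and 3, or 380 ± 13.6 (SD, n = 3). Its lowest value was in replicate 3. NDUFV1, which encodes the subunit that binds NADH and flavin, stood at 32.4, 30.6 and 33.5 CPM, and NDUFV2, an iron-sulfur subunit beside it, at 190, 182 and 211 CPM. NDUFV1 and NDUFV2 were thus both highest in replicate 3, NDUFV1 by a margin that did not pass against replicate 1. NDUFS7 and NDUFS8, which carry the iron-sulfur clusters closest to ubiquinone, stood at 86.4, 89.4 and 117 CPM and at 60.8, 64.0 and 81.2 CPM. NDUFS3, a core subunit without a cofactor, stood at 144, 145 and 180 CPM. For these 3 genes replicates 1 and 2 nearly coincided and replicate 3 lay above them.

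The accessory subunit genes of complex I, which stabilise the enzyme and do not carry electrons, were read at 7.63 to 162 CPM on average. NDUFB9, of the membrane arm, drew the most reads of the 12 accessory genes of that arm, with 149, 141 and 196 CPM. NDUFB8, which encodes another membrane arm subunit, drew the fewest, with 392, 320 and 391 counts, or 7.49, 5.82 and 9.59 CPM. It also varied more than any other complex I member (coefficient of variation 24.7%). NDUFB7, a subunit on the intermembrane space side, stood at 68.1, 68.0 and 98.7 CPM, and NDUFB6 at 70.4, 70.1 and 99.98 CPM. NDUFA11, which spans the membrane, stood at 45.6, 43.4 and 60.8 CPM. NDUFAB1, the mitochondrial acyl carrier protein, which binds to both arms and also serves lipoic acid synthesis, stood at 85.7, 88.4 and 118 CPM. In these 4 genes replicates 1 and 2 did not differ beyond counting noise, and replicate 3 was higher by 33.4% to 45.1%. The remaining accessory genes, NDUFB1, NDUFB2, NDUFB3, NDUFB4, NDUFB5 and NDUFB11 of the membrane arm and NDUFS4 and NDUFV3 of the peripheral arm, were also highest in replicate 3. Among these genes the difference ran from 11.3% for NDUFB5 to 41.4% for NDUFB2 over replicate 1, and from 16.5% for NDUFB5 to 38.9% for NDUFB1 over replicate 2. NDUFB2 and NDUFS4 each differed between all 3 pairs of libraries by the exact test. NDUFB2 stood at 31.8, 36.7 and 45.03 CPM, and NDUFS4, a subunit of the NADH-oxidising end, was lowest in replicate 2, with 56.0, 51.0 and 63.4 CPM. With counts halved, neither gene passed between replicates 1 and 2 (adjusted p = 0.153 and 0.373, same exact test).

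A pair of larger accessory subunits went the other way. NDUFA9, which binds a nucleotide near the ubiquinone site, stood at 92.2, 94.5 and 85.5 CPM and was lower in replicate 3 than in either other library (adjusted p = 0.00205 and 1.5e-05 by the exact conditional binomial test). NDUFA10, a membrane arm subunit related to nucleoside kinases, stood at 93.0, 88.7 and 85.2 CPM, lower than in replicate 1 (adjusted p = 0.000264) but not distinguished from replicate 2 (adjusted p = 0.131, same exact test).

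The NDUFAF genes encode factors that act during complex I assembly and are absent from the finished enzyme. All 6 were above 1 CPM. NDUFAF1, which acts on the membrane arm, stood at 36.5, 36.4 and 41.9 CPM, and NDUFAF3 and NDUFAF4, which act together on the ubiquinone module, at 33.2, 33.4 and 39.0 CPM and at 18.5, 18.8 and 24.0 CPM. NDUFAF7, a methyltransferase, stood at 30.2, 26.6 and 34.7 CPM, and NDUFAF5, a hydroxylase for NDUFS7, at 19.4, 17.8 and 25.9 CPM. NDUFAF6 drew the fewest reads, with 3.78, 3.51 and 4.56 CPM. In each of the 6 genes replicate 3 held the highest value, and it passed against replicate 1 in 5 and against replicate 2 in 6. Over all genes, 21.8% and 22.0% were higher in these comparisons, and 35.1% and 34.8% of those averaging 10 CPM or more.

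Complex II, succinate dehydrogenase, links the citric acid cycle to the chain, and all of its subunits are encoded in the nucleus. Its 4 genes had a median coefficient of variation of 2.27%, the lowest of the 5 complexes. The subunit genes read of complexes I, III, IV and V had 14.6%, 6.23%, 16.6% and 9.06%. SDHC and SDHD, the membrane anchors, stood at 199, 201 and 198 CPM and at 59.8, 60.4 and 60.7 CPM, with coefficients of variation of 0.593% and 0.749%. Neither differed between any pair of libraries beyond counting noise. SDHB, the iron-sulfur subunit, stood at 87.5, 86.8 and 93.0 CPM, and SDHA, the flavoprotein, at 60.3, 61.4 and 53.2 CPM. In replicate 3, SDHA fell by 11.8% against replicate 1 and fell by 13.3% against replicate 2 (adjusted p = 2.2e-05 and 7.66e-07, exact conditional binomial test). SDHB was higher there by 6.25% and 7.12% (adjusted p = 0.0142 and 0.00418, same exact test), and with counts halved the SDHB difference passed against neither library (adjusted p = 0.126 and 0.0682). The sum over the 4 genes was 407, 409 and 405 CPM.

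Of complex III, the 4 genes read were UQCRC1, a core protein of the matrix side, UQCRFS1, the Rieske iron-sulfur protein, CYC1, which encodes cytochrome c1, and UQCRB, a small subunit. UQCRC1 stood at 219, 218 and 215 CPM and UQCRFS1 at 114, 118 and 117 CPM, and no pair of libraries differed beyond counting noise in either gene. CYC1 stood at 102, 94.0 and 119 CPM and UQCRB at 84.5, 78.0 and 96.4 CPM. In CYC1 and UQCRB all 3 pairs of libraries differed by the exact test, with replicate 2 lowest and replicate 3 highest. Neither passed between replicates 1 and 2 with counts halved (adjusted p = 0.152 and 0.297, same exact test).

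In complex IV, cytochrome c oxidase, COX4I1, the general isoform of its largest nuclear subunit, stood at 241, 244 and 296 CPM. COX5B, which encodes a zinc-binding subunit, stood at 95.1, 88.1 and 117 CPM. Both were highest in replicate 3, COX4I1 by 23.1% and 21.4% and COX5B by 23.2% and 33.0% over replicates 1 and 2.

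Tissue isoforms could be read only in part. For none of the 10 isoform pairs listed were both genes among the rows, so no difference between a general and a tissue form was computed. COX7A1, the heart and skeletal muscle form of subunit VIIa, had 605, 599 and 615 counts. Its level was 11.6, 10.9 and 15.1 CPM, above 1 CPM (adjusted p = 6.09e-09, edgeR) and narrowly above 10 CPM (adjusted p = 0.0403). COX6A2, the heart and skeletal muscle form of subunit VIa, had 34, 70 and 53 counts, or 0.65, 1.27 and 1.30 CPM. It was the only member not distinguished from 1 CPM (1.07 ± 0.37 CPM, SD, n = 3, adjusted p = 0.71, edgeR). Replicate 1 was the low library. Against it, COX6A2 was higher by 99.0% in replicate 3 and by 94.4% in replicate 2 (adjusted p = 0.00499 and 0.025, exact conditional binomial test), while replicates 2 and 3 nearly coincided. When counts were halved, to allow for mates counted separately, neither difference passed (adjusted p = 0.0744 and 0.499).

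Muscle markers were read beside these isoforms. Of 8 matched of 11 listed, TNNI3, ACTN2, ACTC1 and TNNT2, genes of the contractile apparatus, were above 1 CPM. MYOD1, MYOG and MB were below, and MYH7 was not distinguished. Of all genes tested, 56.0% were above 1 CPM and 37.8% below, and 78.3% of those with a symbol were above. The 4 of 8 above and 3 of 8 below are near the shares of all genes. The list summed to 51.4, 45.9 and 59.5 CPM in replicates 1, 2 and 3, most of it from TNNI3 with 31.3, 26.2 and 38.4 CPM. TNNI3 was highest in replicate 3, as COX7A1 was, while ACTC1 stood at 5.89, 6.66 and 5.05 CPM and TNNT2 at 3.63, 3.76 and 3.65 CPM. In replicate 3, 2 of the 8 markers passed as higher than in replicate 1 and none as lower, and 3 as higher and 1 as lower than in replicate 2. Over all genes, 21.8% were higher and 25.8% lower than in replicate 1, and 22.0% and 26.1% than in replicate 2. Some of these calls rest on few reads: MB had 6 counts in replicate 3 against 0 in replicate 1, and MYOG 9 against 2 in replicate 2. MYOD1, the regulator that defines skeletal muscle, had no counts in replicates 2 and 3, and MB, myoglobin, had none in replicate 1. The part of muscle-like cells in the COX7A1 and COX6A2 counts was not tested. In bulk RNA, few cells with a high level and many with a low level cannot be told apart.

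**Figure D2:**
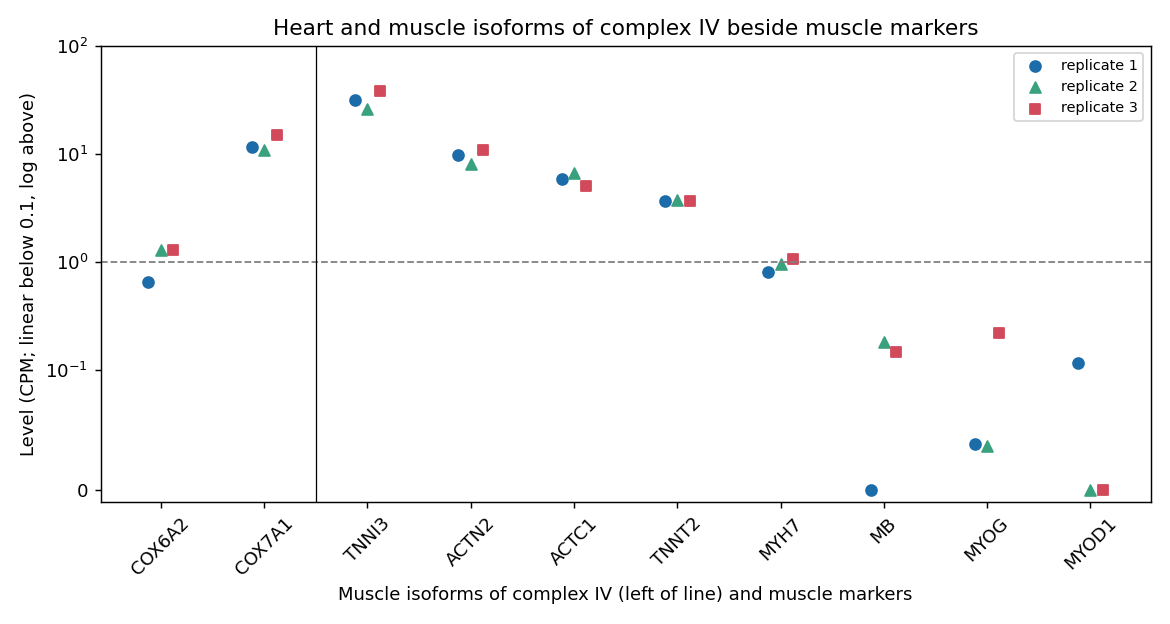
Levels of COX6A2 and COX7A1 (left of the vertical line) and of 8 muscle markers in CPM, 1 symbol per library, on an axis that is linear below 0.1 and logarithmic above. COX7A1 lies between 10.9 and 15.1 CPM in the 3 libraries, while MYOD1 and MB reach 0 in some.

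Complex V consists of a catalytic head, a central and a peripheral stalk and a membrane ring of c subunits. ATP5A1, which encodes the alpha subunit of the head, had 67559, 72502 and 47599 counts, or 1291, 1318 and 1167 CPM, the most reads of any member. In replicate 3 it fell by 9.61% against replicate 1 and fell by 11.5% against replicate 2. ATP5F1C and ATP5F1D, subunits of the central stalk, stood at 262, 253 and 284 CPM and at 35.1, 36.8 and 41.7 CPM, both highest in replicate 3. In the peripheral stalk, ATP5H stood at 335, 329 and 441 CPM, ATP5PF at 98.2, 91.1 and 121 CPM and ATP5PB at 128, 125 and 129 CPM. ATP5PB thus stayed within counting noise between each pair of libraries, while its partners in the stalk were highest in replicate 3. ATP5MC3, a c subunit gene whose product matures to the same protein as those of ATP5MC1 and ATP5MC2, stood at 254, 269 and 325 CPM.

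The libraries were then compared pair by pair with an exact conditional binomial test on the counts (two-sided, Benjamini-Hochberg adjusted over all genes with a count in the pair), which compares these libraries and no conditions. Between replicates 1 and 2, 9 members were lower and 4 higher in replicate 2, against 3.31% lower and 3.93% higher of all 22502 genes. Of the 45 members averaging 10 CPM or more, 8 were lower and 3 higher, beside 5.56% and 7.55% of genes at that level. The largest absolute log2 ratio among those members was 0.20, that of NDUFB2. No member passed with counts halved. At a difference of at least 1.5-fold only COX6A2 passed, higher in replicate 2, beside 0.662% of all genes lower and 0.462% higher by that rule, and 0.0214% lower at 10 CPM or more.

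Replicate 3 differed from replicate 1 in most members. Of 48, 35 were higher in replicate 3 and 6 lower, against 21.8% higher and 25.8% lower over all 22703 genes. Against replicate 2, 36 were higher and 5 lower, beside 22.0% and 26.1% of 22686 genes. Highly read genes pass more easily, so the same shares were taken over genes averaging 10 CPM or more. There 35.1% were higher and 44.1% lower than in replicate 1, and 34.8% and 45.1% against replicate 2. Of the 45 members at that level, 33 were higher and 6 lower than in replicate 1 (73.3% and 13.3%), and 34 and 5 against replicate 2 (75.6% and 11.1%). The 2 comparisons share replicate 3.

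The differences were small. The median log2 ratio of the 48 members was 0.26 over replicate 1 and 0.29 over replicate 2, beside −0.05 and −0.05 for all genes averaging 1 CPM or more. At a difference of at least 1.5-fold, only COX6A2 was higher against replicate 1 and only NDUFB8 against replicate 2, and no member was lower. Over all genes, 6.39% were higher and 10.4% lower by that rule against replicate 1, and 6.86% and 10.6% against replicate 2. Of the 45 members averaging 10 CPM or more none passed it in either direction, beside 2.67% higher and 11.3% lower of genes at that level against replicate 1, and 2.72% and 11.9% against replicate 2. For rises, a count of none among these 45 members is near those shares. Those members lay within a log2 ratio of 0.54 of replicates 1 and 2. Single genes at that level differed by up to 3.66 and 3.48, but these are maxima over 9352 genes. The upper tails were alike, with 95th percentiles of 0.492 and 0.508 for those members and 0.491 and 0.492 for all genes at that level. Only the lower tail was shorter, with 5th percentiles of −0.122 and −0.130 for those members and −0.834 and −0.843 for all.

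**Figure D3:**
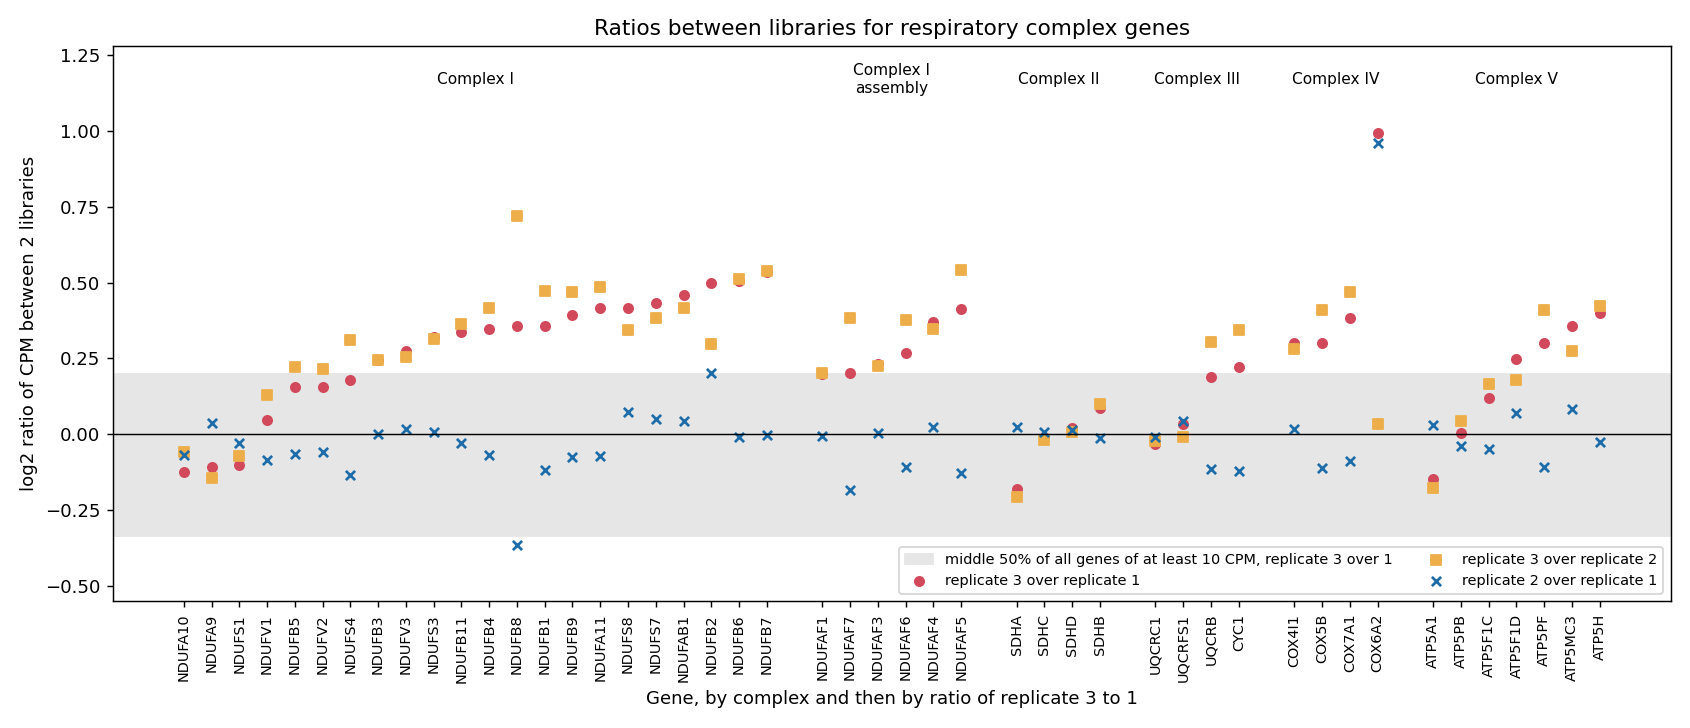
log2 ratio of CPM between pairs of libraries (vertical axis) for each member shown (horizontal axis, by complex). The grey band holds the middle 50% of all genes averaging 10 CPM or more for replicate 3 over replicate 1, from −0.33 to 0.20, and most members lie above 0 in both comparisons with replicate 3.

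The members lower in replicate 3 than in each other library included SDHA, ATP5A1, NDUFA9 and NDUFS1, which encode the catalytic flavoprotein of complex II, the alpha subunit of the ATP synthase head, and an accessory and a core subunit of complex I. The log2 ratios of these 4 genes ran from −0.18 to −0.10 against replicate 1 and from −0.21 to −0.07 against replicate 2. The largest rises against both were in NDUFB7, NDUFB6, NDUFA11, NDUFAB1 and NDUFAF5, with log2 ratios of 0.41 to 0.54.

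By group, the 12 accessory genes of the complex I membrane arm had a median log2 ratio of 0.36 over replicate 1 and 0.44 over replicate 2, with 11 higher in each comparison. The 7 core genes had 0.16 and 0.22, with 4 higher and 2 lower, and 5 higher and 2 lower. For the NDUFAF genes the medians were 0.25 and 0.36. Complex II had 0.01 and −0.00, with 1 gene higher and 1 lower in each comparison, and complex III had 0.11 and 0.15, with 2 of 4 higher and none lower. In complex IV the medians were 0.34 and 0.35, with 4 and 3 of 4 higher, and in complex V 0.25 and 0.18, with 5 of 7 higher and 1 lower. The complex IV count over replicate 1 includes COX6A2, which did not pass with counts halved (adjusted p = 0.0744, exact conditional binomial test). Of genes averaging 10 CPM or more, 35.1% were higher and 44.1% lower than in replicate 1, and 34.8% and 45.1% than in replicate 2. Summed levels were 2251, 2216 and 2579 CPM for the complex I subunits, 520, 508 and 548 for complex III, 348, 344 and 430 for complex IV and 2403, 2422 and 2510 for complex V. Medians and sums cover only the genes among the rows, not whole complexes, and for complex IV they include the muscle isoform genes COX6A2 and COX7A1. Differences between complexes or roles were not tested, and the groups are small.

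**Figure D4:**
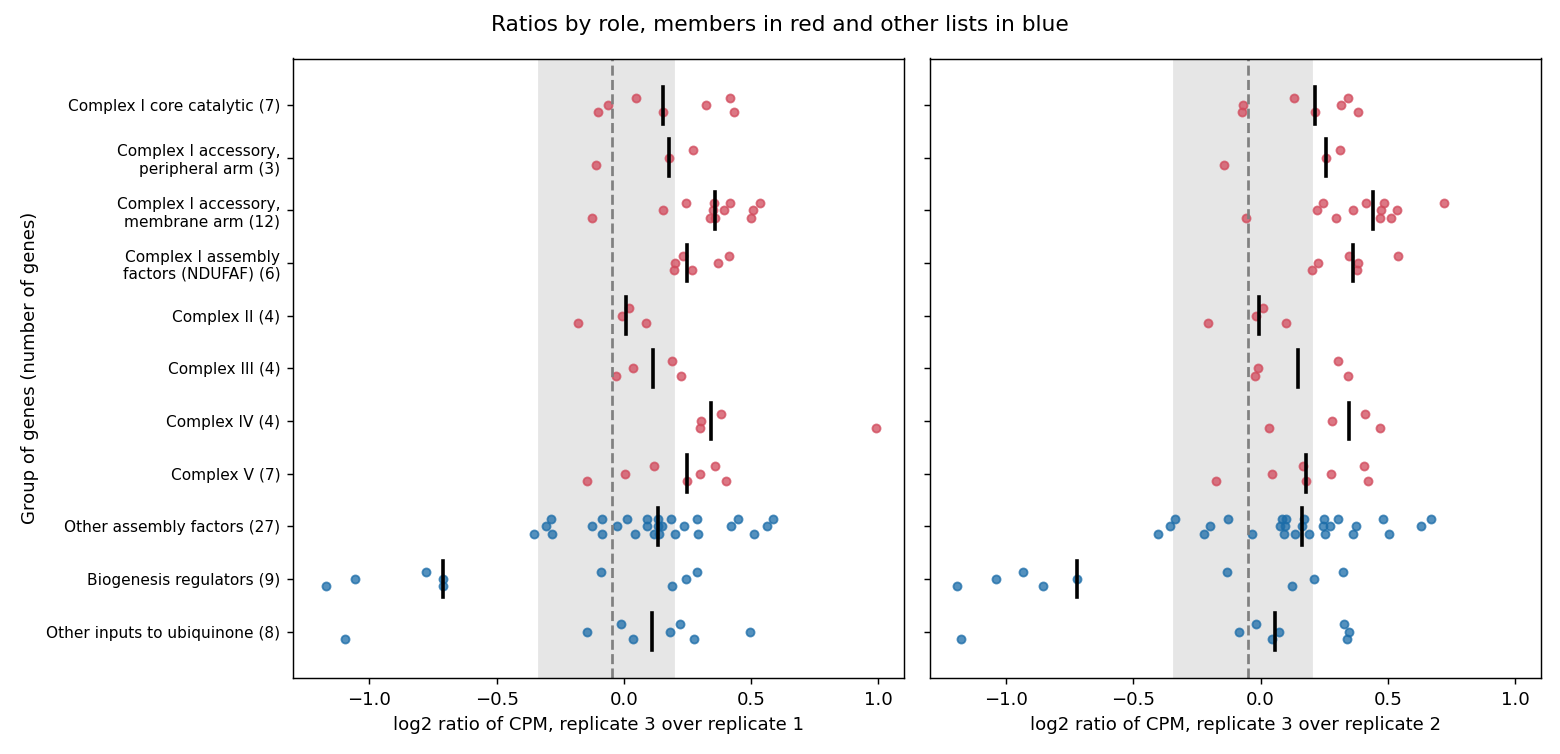
log2 ratio of CPM for replicate 3 over replicate 1 (left) and over replicate 2 (right), 1 point per gene, by role, with black bars at group medians. The dashed line and grey band give the median and middle 50% of genes averaging 10 CPM or more. Membrane arm genes of complex I lie mostly right of the band, complex II lies around 0 and most regulators of mitochondrial biogenesis lie to the left.

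Other genes of the pathway did not all follow the subunits. Of 27 matched of 41 further assembly factor genes, 26 were above 1 CPM, beside 78.3% of genes with a symbol. In replicate 3, 14 were higher and 4 lower than in replicate 1, beside 21.8% and 25.8% of all genes and 35.1% and 44.1% of those averaging 10 CPM or more. Against replicate 2, 15 were higher and 5 lower, beside 22.0% and 26.1%, and 34.8% and 45.1%, with median log2 ratios of 0.13 and 0.16. Of the 8 for complex I among them, 3 were higher and 2 lower than in replicate 1, and 3 and 3 than in replicate 2. Their median log2 ratios were 0.05 and 0.09, beside 0.25 and 0.36 for the NDUFAF genes. COX17, a copper chaperone for complex IV, stood at 68.4, 61.2 and 97.5 CPM, and BCS1L, which inserts the Rieske protein into complex III, at 39.7, 42.1 and 58.8 CPM, both highest in replicate 3. TTC19, which acts late in complex III assembly, stood at 123, 127 and 99.3 CPM, and COX15, an enzyme of heme a synthesis, at 82.2, 81.2 and 64.3 CPM, both lowest there. COX19 was not distinguished from 1 CPM, at 0.707, 0.727 and 0.662 CPM (adjusted p = 0.0622, edgeR).

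Of 9 matched of 11 regulators of mitochondrial biogenesis, all were above 1 CPM, beside 78.3% of genes with a symbol. In replicate 3, 6 were lower and 3 higher than in each other library. The same background shares apply, and 3 of 9 higher is near that of genes averaging 10 CPM or more. By at least 1.5-fold, 5 of the 9 were lower in each comparison, beside 10.4% and 10.6% of all genes. The median log2 ratios were −0.71 and −0.72, while the list summed to 467, 478 and 469 CPM in replicates 1, 2 and 3. NRF1, a transcription factor for many respiratory genes, stood at 19.2, 20.3 and 11.2 CPM, and TFAM, which packages and transcribes mitochondrial DNA, at 41.2, 41.5 and 25.1 CPM. PPARGC1A, the coactivator PGC-1 alpha, stood at 1.95, 1.98 and 0.858 CPM, and PPARGC1B, its relative, at 9.25, 10.8 and 5.64 CPM. ESRRG, a nuclear receptor that works with them, stood at 2.47, 2.44 and 1.18 CPM. In these 5 genes replicate 3 lay well below both other libraries. PPRC1, which drew the most reads of the list, was only slightly lower there, at 156, 161 and 147 CPM. Its log2 ratios were −0.09 and −0.13. ESRRA, a related receptor, and TFB2M and POLRMT, of the mitochondrial transcription machinery, were instead highest in replicate 3, at 44.9, 99.1 and 134 CPM.

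Marker lists are given beside these ratios. Of the pluripotency markers, LIN28B stood at 742, 774 and 469.95 CPM, POU5F1 at 974, 972 and 1185 CPM and EPCAM at 804, 799.5 and 1032 CPM, so that replicate 3 was lowest for LIN28B and highest for POU5F1 and EPCAM. Of the fibroblast list, 3 of 5 matched, COL1A1, COL1A2 and DCN, and all were lower there, with a sum of 610, 573 and 430 CPM in replicates 1, 2 and 3. Of all genes, 25.8% and 26.1% were lower in replicate 3 than in replicates 1 and 2. Among those averaging 10 CPM or more the shares were 44.1% and 45.1%. DCN, which encodes decorin, had 484, 534 and 40 counts. Of the germ cell list, 2 of 5 matched, DDX4 and TNP1, with a sum of 0.956, 0.582 and 1.37 CPM, and TNP1 had no counts in replicates 1 and 2. Of these, DDX4 passed as higher in replicate 3 than in replicate 2 (adjusted p = 0.000716, exact conditional binomial test), and neither gene passed against replicate 1. The part of these cells, or of RNA quality, in the ratios of the respiratory genes was not tested.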

How the data were processed

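RNA of 3 libraries was sequenced by an Illumina protocol, per the labels' protocols. The authors deposited raw read counts for each Ensembl marmoset gene. The submitters' processing notes name featureCounts 1.5.2, STAR 2.5.3a and, for trimming, Trim Galore 0.4.0. The build, annotation release, strand setting and handling of multiply mapped reads: not given in the sources used here. Levels of members with close copies, which are common in these families, are therefore uncertain, as are overlapping genes. In the RefSeq annotation of calJac240_pri, the spans of 13 of the 48 members overlap another gene, among them ATP5A1, ATP5H, NDUFA9, NDUFA10, NDUFB6, NDUFAF6 and SDHC.

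Symbols came from a table of gene IDs, which names 12660 of 30811 genes. CPM values used TMM factors (edgeR 4.0.16, R 4.3.3, limma 3.58.1). The 23432 genes holding any count were tested against 1 CPM in edgeR, with an intercept as the only term and a quasi-likelihood F statistic. Library pairs were compared by an exact conditional binomial test on TMM-scaled library sizes. Ratios used a prior count of 0.5. Calls needed an adjusted p under 0.05. Both tests were run on simulated counts with known answers. For the pair test these were Poisson counts, so that check covers counting error only and not other differences between these libraries. Alternatives were DESeq2 1.42.0, other scalings, filters and levels, halved counts and leaving out each library.

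Members and lists were chosen with earlier results of these data known. Genes named are, per complex, those of highest and lowest CPM, those not above 1 CPM, the 5 largest rises and drops in replicate 3, and the isoform genes. The other members and genes of other lists were named to describe their groups, after their values were seen, as was the comparison with genes averaging 10 CPM or more. Results of 1 member enter the counts and group values but are not reported here by name. Differences between general and tissue isoforms had been planned and were not run, since no pair had both genes among the rows. Coordinates and sequences are not given, as no genome was used. Python 3.11.15 with matplotlib 3.10.9 made the figures.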

Additional observations from a re-analysis of the deposited data

How the results depend on the processing

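The count of 47 members above 1 CPM was 47 with DESeq2 size factors, total counts, a minimum of 10 counts, DESeq2's own test and without each library in turn, and 45 at 10 CPM. COX6A2, not distinguished from 1 CPM, had a log2 level of 0.10 with 3 libraries, 0.36 without replicate 1, −0.041 without replicate 2 and −0.054 without replicate 3, and no call in any setting. Requiring a difference of at least 1.5-fold left 0 members lower and 1 higher in replicate 3 than replicate 1, 0 lower and 1 higher than replicate 2, and 1 that differed between replicates 1 and 2. With counts halved, 0 members differed between replicates 1 and 2, since fewer counts carry less weight, while 33 were higher in replicate 3 than in replicate 1 and 33 than in replicate 2. Median ratios kept their sign under every scaling, from 0.26 to 0.28 over replicate 1 and from 0.29 to 0.30 over replicate 2, and over replicate 2 the median was 0.28 for structural subunits alone. The share of counts in members ran from 0.604% to 0.637% when a library was left out. With only 1 group to work with, pairing by number has no meaning: no paired analysis was possible because all 3 libraries share 1 label. The isoform pair differences were not run, as no pair had both genes among the rows. With 3 libraries, of which replicates 1 and 2 may be close repeats, the precision of every level is limited. Fits on 2 libraries estimate each gene's spread from still fewer values, together with the trend over genes. Genes with few counts, such as COX6A2 and NDUFAF6, have the widest counting error.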

Other observations

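Genes outside the complexes that also feed electrons to ubiquinone were read in all libraries. All 8 listed genes matched and were above 1 CPM, beside 78.3% of tested genes with a symbol. GPD2, the mitochondrial glycerol phosphate dehydrogenase, had 40.4, 42.8 and 18.9 CPM. In replicate 3 it fell by 53.2% against replicate 1 and fell by 55.8% against replicate 2 (adjusted p = 9.34e-79 and 4.11e-95, exact conditional binomial test of these libraries). ETFA, a subunit of the electron transfer flavoprotein, stood at 168, 164 and 172 CPM. SQOR, which oxidises sulfide, stood at 2.68, 2.98 and 3.78 CPM. By that test 3 of the 8 genes were higher and 2 lower against replicate 1, beside 21.8% and 25.8% of all genes. Of genes averaging 10 CPM or more, 35.1% were higher and 44.1% lower. Against replicate 2, 3 passed as higher and 1 as lower, beside 22.0% and 26.1%, and 34.8% and 45.1% at 10 CPM or more. In both comparisons 3 of 8 higher is near the share at 10 CPM or more.

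Of 9 carrier and pore genes of the mitochondrial membranes, 5 matched. VDAC2, a pore of the outer membrane, stood at 335, 342 and 409 CPM. UCP3, an inner membrane carrier of muscle, stood at 37.1, 40.0 and 46.3 CPM and was above 1 CPM (adjusted p = 1.9e-11, edgeR), while UCP1, the uncoupling protein of brown fat, had 0, 0 and 4 counts and was below it.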
